A study of Mus musculus with 2 samples.

Results

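Egr2, Pou3f1, Pou3f2, Pou3f3, Nab1, Nab2, Yy1, Tead1 and Zeb2, transcriptional regulators tied to Schwann cell myelination together with the nearest relatives of Pou3f1, were examined for H3K27me3 in mouse sciatic nerve. These 9 genes were taken by name, of 21887 protein-coding genes. A deposited peak belonged to a gene when it overlapped the gene span or the 50 kb on either side of it, by at least 1 bp. This rule gave 15 of the 6018 peaks in the list. The libraries were 1 H3K27me3 ChIP library and 1 input library, both from C57/BL6 males, 8 weeks of age, with no treatment or mutation in the labels. Only the ChIP library has values, in the form of peaks, so the input gives no level beside them. There are no replicates: every value describes 1 nerve preparation, no p-value was computed, and intervals on reads cover counting error only. The labels' protocols mention no sorting of the nerve, so a peak can come from Schwann cells, fibroblasts, vessel cells or immune cells.

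H3K27me3 is set by Polycomb repressive complex 2 and is found at genes held silent, often those of other lineages or other developmental stages. In Schwann cells, Pou3f1 (Oct6, SCIP) and its relative Pou3f2 (Brn2) carry the cell from the promyelinating stage into myelination, and Egr2 (Krox20) then drives and maintains the myelin genes. Nab1 and Nab2 bind Egr proteins as cofactors, Yy1 acts on Egr2 downstream of neuregulin, Tead1 is the DNA-binding partner of the coactivators Yap and Taz, and Zeb2 represses inhibitors of differentiation. Pou3f3 (Brn1) is best known from developing brain and kidney.

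The 9 genes fell into 2 sets. Egr2 and the 3 Pou3 genes each had a peak in or over the gene and within 2 kb of an annotated gene end. Nab1, Nab2, Yy1 and Zeb2 had no peak in the gene or its 50 kb flanks, and the single peak in the Tead1 window lay at another gene. Counted over the windows, 5 of the 9 genes had a peak (55.6%, exact Clopper-Pearson 95% interval 21.2 to 86.3), beside 25.5% of all protein-coding genes. At gene ends, 4 of 9 had a peak (44.4%, 13.7 to 78.8), beside 8.59% of all protein-coding genes, and the same 4 had a peak in the gene span, beside 9.77%. The 2 kb end windows span all of Pou3f1 (3010 bp) and nearly all of Pou3f3 (4443 bp). For these genes the 2 counts are not separate results. The median of the 9 windows was 17 reads, beside 0 over all protein-coding genes. With peaks of at least 20 reads, a setting added after seeing the data, 3 of 9 genes had a peak in the window and at an end, the 3 Pou3 genes, beside 12.7% and 4.73% of all protein-coding genes. The set is small and its members were picked by name, with earlier results of these data known. The intervals on shares would hold only for genes drawn at random. These shares therefore describe the 9 genes and were not tested.

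**Figure D1:**
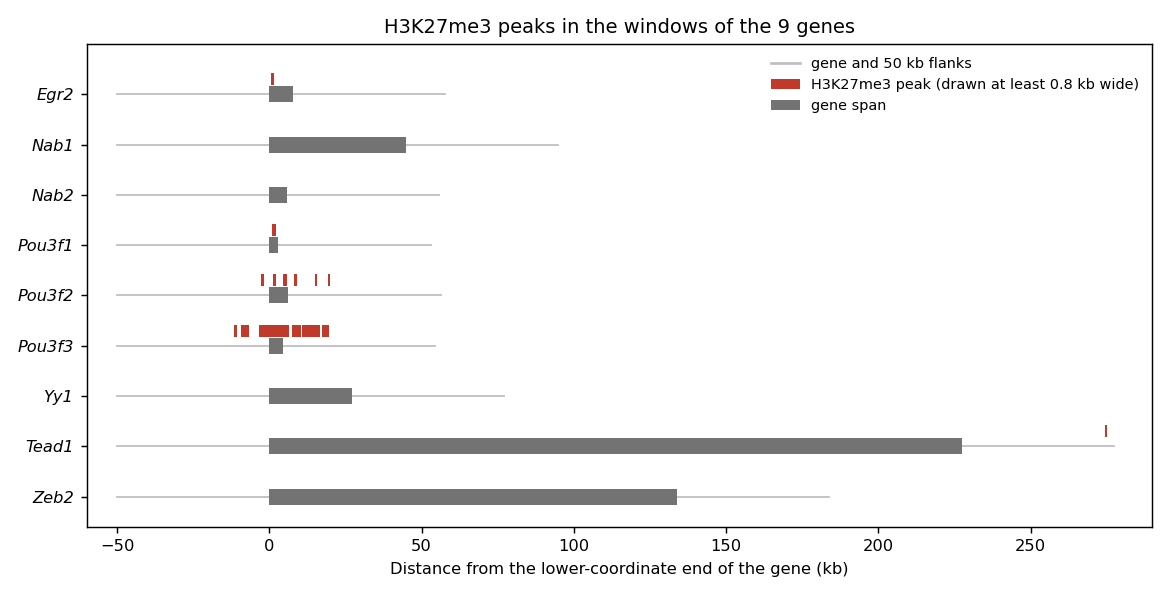
Peaks (red) in the gene span (grey bar) and 50 kb flanks (line) of each of the 9 genes, by distance in kb from the lower-coordinate end of the gene. Egr2 and Pou3f1 have 1 peak each in the gene, Pou3f2 and Pou3f3 have 6 each around the gene, the Tead1 peak lies 46865 bp beyond the gene, and the windows of Nab1, Nab2, Yy1 and Zeb2 are empty.

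The promoter sequences show where these peaks stood. RefSeq promoter windows, 250 bases before to 50 bases after a listed transcript start on GRCm38.p6 (the build of mm10), were matched for 7 of the 9 genes (not Pou3f1 and Tead1), in 14 windows. A peak lay over 2 of the 14, at Egr2 and Pou3f3, and covered all 300 bases of each. Some of the 14 windows overlap each other. Of the 21263 promoter windows of protein-coding genes, 940 were overlapped by a peak. Counted by gene, 2 of the 7 had a covered window, beside 4.75% of the protein-coding genes in the promoter table. The sequences below are the covered and an uncovered Egr2 window, the covered Pou3f3 window, the Pou3f2 window that lies between peaks, and that of Nab1, a gene far from any peak. Each runs 5′ to 3′ on the gene's strand. Capitals mark matches on either strand to letters known as binding motifs of the 9 genes' families, which are GCGNGGGCG for Egr, ATGCAAAT for Pou, GGAATG for Tead, AAGATGGC for Yy1 and CACCTG for Zeb. No match overlapped another in these windows.
Egr2, chr10:67535249-67535548, plus strand, covered: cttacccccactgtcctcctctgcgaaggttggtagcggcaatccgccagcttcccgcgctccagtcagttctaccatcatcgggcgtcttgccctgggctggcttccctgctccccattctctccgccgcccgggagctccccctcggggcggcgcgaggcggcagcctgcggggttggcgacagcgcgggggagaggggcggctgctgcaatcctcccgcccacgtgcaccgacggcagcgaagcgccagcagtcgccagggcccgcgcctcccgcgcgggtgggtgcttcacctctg
Egr2, chr10:67537619-67537918, plus strand, not covered: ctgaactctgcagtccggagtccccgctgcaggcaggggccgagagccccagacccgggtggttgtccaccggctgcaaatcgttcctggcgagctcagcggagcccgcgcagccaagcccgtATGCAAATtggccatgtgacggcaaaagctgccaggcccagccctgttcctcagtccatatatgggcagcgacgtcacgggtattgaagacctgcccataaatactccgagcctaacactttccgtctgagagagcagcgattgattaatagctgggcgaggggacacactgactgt
Pou3f3, chr1:42695518-42695817, plus strand, covered: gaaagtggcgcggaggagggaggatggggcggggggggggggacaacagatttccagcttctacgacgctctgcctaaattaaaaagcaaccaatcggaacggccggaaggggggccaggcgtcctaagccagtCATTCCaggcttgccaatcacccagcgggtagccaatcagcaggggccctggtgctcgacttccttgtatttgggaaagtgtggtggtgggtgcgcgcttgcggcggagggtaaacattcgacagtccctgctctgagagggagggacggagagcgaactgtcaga
Pou3f2, chr4:22488317-22488616, minus strand, not covered: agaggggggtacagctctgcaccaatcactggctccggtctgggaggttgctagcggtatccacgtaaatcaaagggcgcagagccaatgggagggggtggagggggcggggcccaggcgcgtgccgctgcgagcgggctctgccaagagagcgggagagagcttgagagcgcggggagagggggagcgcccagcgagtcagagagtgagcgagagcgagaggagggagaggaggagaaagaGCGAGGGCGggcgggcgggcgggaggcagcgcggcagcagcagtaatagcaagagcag
Nab1, chr1:52500399-52500698, minus strand, not covered: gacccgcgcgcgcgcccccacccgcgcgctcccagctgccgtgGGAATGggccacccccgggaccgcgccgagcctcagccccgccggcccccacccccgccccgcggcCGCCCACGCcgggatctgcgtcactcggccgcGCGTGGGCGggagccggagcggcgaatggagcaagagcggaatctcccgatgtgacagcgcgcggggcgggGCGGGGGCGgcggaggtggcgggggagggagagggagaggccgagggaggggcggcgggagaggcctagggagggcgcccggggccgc

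The covered Egr2 window held none of these letters. The uncovered Egr2 window held the Pou octamer ATGCAAAT, which 1.74% of all 32851 promoter windows hold, at 127 bases before the listed start. The same octamer lies in the other 2 Egr2 windows that overlap it. The Nab1 window held the Egr letters in 3 places and the Tead letters in 1. Of all promoter windows, 5.55% hold the Egr letters and 14.7% the Tead letters. The covered Pou3f3 window held the Tead letters on the opposite strand, and the Pou3f2 window the Egr letters. The letters of Yy1 and Zeb, held by 2.75% and 20.2% of all promoter windows, were in none of the 14. A match is a string of letters and not a measured site.

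The printed windows are all above the median of promoters in CpG, and the highest ratio among them belonged to the uncovered Nab1 window. The ratio of observed to expected CpG was 0.83 in the covered Egr2 window and 0.70 in the covered Pou3f3 window. It was 0.70 in the printed uncovered Egr2 window, 0.82 at Pou3f2 and 0.93 at Nab1. The Egr2 windows not printed, all uncovered, had 0.997, 0.71 and 0.68, the first being the highest of the 14 windows. The median was 0.57 over all promoter windows of protein-coding genes. It was 0.68 over the 940 of these windows that a peak overlapped, and 0.56 over those with none. Yy1, with no peak, also had a high ratio, 0.86, while the 4 Zeb2 windows ranged between 0.42 and 0.69.

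Egr2, the zinc finger factor that drives and maintains myelin gene expression, carried 1 peak near its lower-coordinate end. The gene lies at chr10:67534469-67542188 on the plus strand, and the peak at chr10:67535088-67535992. The peak was 905 bp wide and held 18 reads (exact 95% Poisson interval 10.7 to 28.4), and it covered 11.7% of the gene. Reads here are the authors' score per peak divided by its step of 2.5735, so that the lowest listed peak stands for 10 reads. The peak held 19.9 reads per kb, beside a median of 21.0 over all peaks. Its reads and width were above the medians of the list, 14 reads and 643 bp, and 38.5% of all peaks held as many reads. Of the 5 Egr2 transcript starts in the RefSeq table, the peak covered the first. The other 4 lay between 1574 and 1938 bp beyond its end, with no peak over their promoter windows. The peak also lay entirely within Gm32255, a long non-coding RNA gene on the minus strand whose start lies 188 bp beyond the peak. Reads from this stretch cannot be split between the genes.

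Pou3f1, which carries Schwann cells into myelination, had 1 peak in the middle of its short gene. The gene spans chr4:124657646-124660655 and the peak chr4:124658478-124659750. The peak was 1273 bp wide, held 27 reads (17.8 to 39.3) and covered 42.3% of the gene. It began 832 bp above the lower-coordinate end and stopped 905 bp short of the other end. No other peak lay within 50 kb of the gene. By its reads it was 1.5 times the Egr2 peak, with an exact 95% interval of 0.80 to 2.89, so the difference between these 2 peaks is within counting error. Per kb they held 21.2 and 19.9 reads.

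Pou3f2, the relative that overlaps with Pou3f1 in function in Schwann cells, had more peaks, most of them narrow, with 5 of the 6 under the list's median width of 643 bp. The gene, chr4:22482095-22488366 on the minus strand, had 6 peaks in its window with 85 reads in all (67.9 to 105). In order along the chromosome these held 10, 14, 27, 14, 10 and 10 reads. The strongest, chr4:22486628-22487805, was 1178 bp wide and ended 561 bp inside the gene, measured from the listed start. A peak of 14 reads lay in the gene nearer its 3′ end, and another of 14 reads lay 1900 bp upstream of the gene. The 300-base promoter window, between the strongest peak and the upstream peak, was uncovered. The remaining 3 peaks were 500 bp wide, the least any listed peak has, with 10 reads each, the read number of 24.8% of all peaks. Of these, 2 lay 8627 and 12985 bp upstream and 1 lay 2125 bp downstream of the gene. Peaks covered 28.8% of the gene. The upstream peak of 14 reads also reached into the long non-coding RNA gene Gm30731.

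Pou3f3 carried a broad domain of the mark over the gene and both flanks. The gene, chr1:42695768-42700210 on the plus strand, was covered over 100% of its length by a peak of 9849 bp, chr1:42692236-42702084, with 244 reads (214 to 277). Only 53 of the 6018 peaks are as wide. The peak reached from 3532 bp before the gene to 1874 bp after it. On the upstream side followed peaks of 63 and 19 reads, and on the downstream side peaks of 67, 110 and 54 reads. The 6 peaks held 557 reads in all (512 to 605) and covered 24414 bp, 23.4% of the window. With gaps of up to 5 kb merged they formed a single domain of 31254 bp, chr1:42684215-42715468, with 78.1% of its length under peaks. It ranked 27 by width and 31 by reads among the 3818 domains of the nerve. Only 0.416% of protein-coding genes had as many reads in their window. Of all protein-coding genes, 1.68% had a peak over 5 kb wide in the window, and among the 9 genes Pou3f3 alone did.

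**Figure D2:**
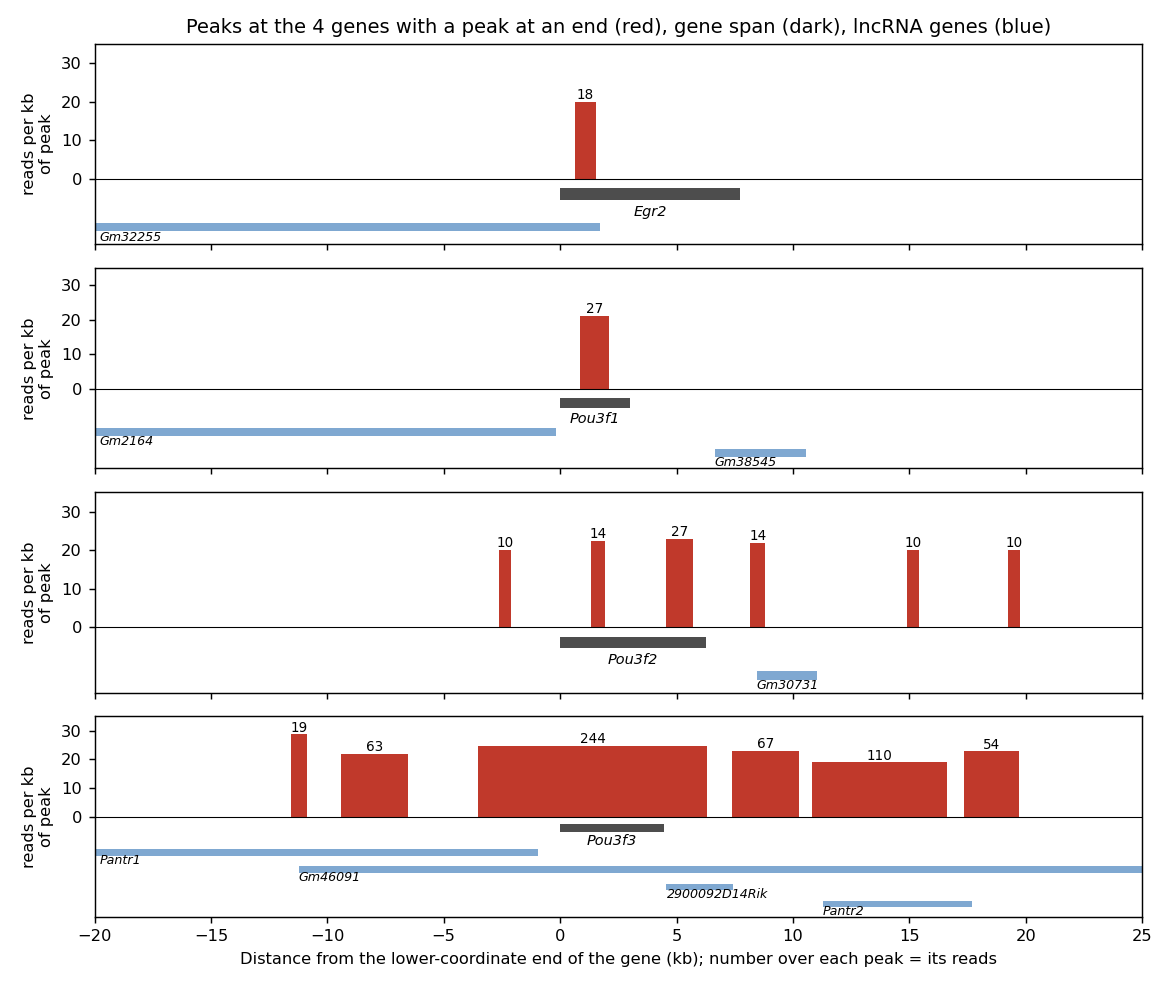
Peaks (red) of the 4 genes with a peak at a gene end, drawn to width, with reads per kb of peak on the vertical axis and the reads of each peak above it. Below each axis are the gene span (dark) and long non-coding RNA genes (blue), by distance in kb from the lower-coordinate end of the gene. Heights are alike, 19.0 to 28.7 reads per kb over all 15 peaks of the 9 genes. Such likeness is general to the list, where the quartiles over all 6018 peaks are 20 and 23.5 reads per kb. Pou3f3 differs in the width that its peaks cover.

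The Pou3f3 domain overlaps 4 long non-coding RNA genes, and each had a peak at an end. Pantr2, on the minus strand, was covered over 88.7% of its 6394 bp and 2900092D14Rik, which begins 125 bp after Pou3f3, over 62.8%. Gm46091, which spans Pou3f3 itself on the same strand, was covered over 40.0%. Pantr1, on the upstream side, was covered over 13.1%, and the peak at its end was the peak of 244 reads that covers Pou3f3. The mark at these RNAs and at Pou3f3 is therefore the same set of peaks, and was not counted as separate signal.

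Pou3f3 had more reads than the other Pou3 genes beyond counting error, while the order of Pou3f2 and Pou3f1 rested on peaks of 10 and 14 reads. Their windows have nearly equal lengths, 103010 bp for Pou3f1, 106272 bp for Pou3f2 and 104443 bp for Pou3f3. Reads in peaks came to 26.2 per 100 kb for Pou3f1, 80.0 for Pou3f2 and 533 for Pou3f3. The ratio of Pou3f3 to Pou3f2 was 6.55 (exact 95% interval 5.21 to 8.33), and that of Pou3f2 to Pou3f1 was 3.15 (2.02 to 5.05). With peaks of at least 20 reads, Pou3f2 and Pou3f1 held 27 reads each and Pou3f3 538. The median peak of Pou3f3 was 2879 bp wide with 65 reads, and that of Pou3f2 563.5 bp with 12 reads. Pou3f3 thus supplied 79.1% of the 704 reads and 78.1% of the bases under peaks in the 9 windows. Without Pou3f3 the sums were 147 reads and 6855 bp. Whether these levels differ between animals was not tested, as there is 1 library.

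**Figure D3:**
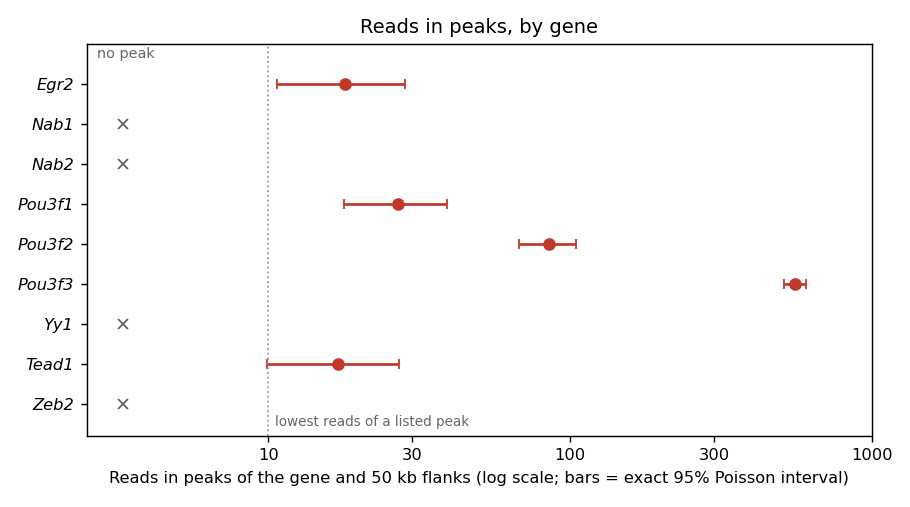
Reads in peaks of the gene and 50 kb flanks for each of the 9 genes, on a log axis, with exact 95% Poisson intervals. Crosses mark genes with no peak, and the dotted line is the 10 reads of the weakest listed peaks. The order is Pou3f3 (557), Pou3f2 (85), Pou3f1 (27), Egr2 (18) and Tead1 (17), and the intervals of the last 3 overlap.

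Nab1 and Nab2, the Egr cofactors, had no peak in their windows. Around Nab1 (chr1:52455849-52500712) the nearest peak lay 538895 bp beyond the 3′ end, and 28.9% of protein-coding genes lie at least as far from a peak. Nab1 sits in a gap of 3.19 Mb between neighbouring peaks, with 28 protein-coding genes inside it. Nab2 (chr10:127660918-127666703) had its nearest peak 124701 bp beyond its 3′ end, a peak of 500 bp and 10 reads near Nxph4. The 4 protein-coding neighbours in the Nab2 window, Stat6, Lrp1, Nemp1 and Myo1a, had no peak at an end either.

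Yy1, Tead1 and Zeb2 had no peak in the gene. The nearest peak to Yy1 (chr12:108792945-108820148) lay 90142 bp upstream, over Degs2, with 40 reads. Tead1 is the longest of the 9 genes (chr7:112679356-112906784, 227429 bp), and none of its length was under a peak. The peak in its window held 17 reads (9.90 to 27.2), lay 46865 bp beyond the gene and covered the lower-coordinate end of Rassf10, its nearest protein-coding gene. Counting each peak for its nearest protein-coding gene left Tead1 with none and 4 of the 9 genes with a peak. Zeb2, the repressor of differentiation inhibitors, lay farthest from a peak among the 9. The gene (chr2:44983512-45117442) is 133931 bp long, its nearest peak was 2330127 bp away, at Lrp1b, and 7.06% of protein-coding genes lie at least as far from a peak. The gap that holds it measured 7.00 Mb, ranked 38 of 5997 gaps by length and contained 8 protein-coding genes. Since the list holds no peak under 10 reads, signal weaker than that would leave a window empty.

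**Figure D4:**
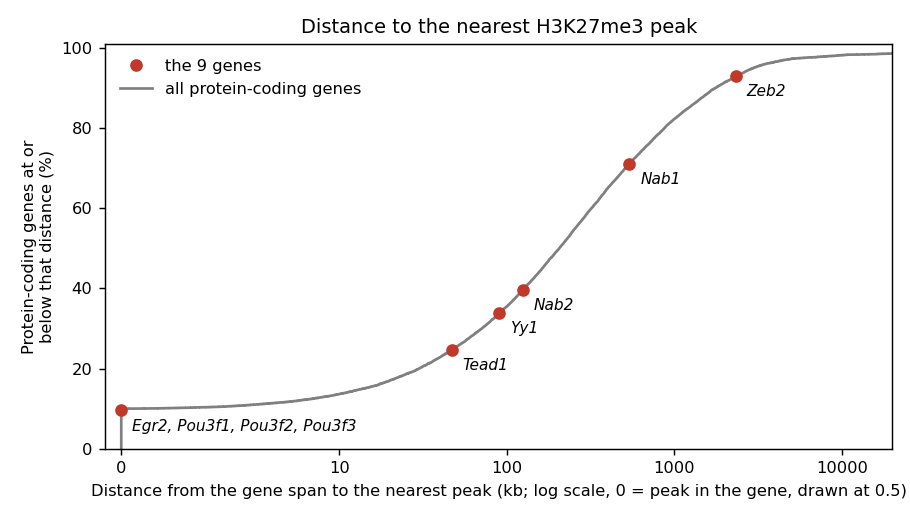
Share of protein-coding genes (%) whose span lies within a given distance of a peak (kb, log axis), with the 9 genes marked in red on the curve. Egr2, Pou3f1, Pou3f2 and Pou3f3 contain a peak, Tead1, Yy1 and Nab2 lie closer to a peak than the median gene (205420 bp), and Nab1 and Zeb2 lie farther.

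Of 12 other protein-coding genes in the windows, 1 (Rassf10) had a peak of the window at an end, a share near the 8.59% of all protein-coding genes. Of 23 long non-coding RNA genes 7 did, beside 6.32% of all long non-coding RNA genes. All 7 lay in the windows of Egr2, Pou3f1, Pou3f2 and Pou3f3, and their peaks are among those already counted for these genes. At Pou3f1 this was Gm2164, whose end lies 158 bp from Pou3f1 and which shares the Pou3f1 peak without overlapping it.

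Relatives of the 9 genes and other regulators of the myelin programme were counted for comparison, also chosen with earlier results of these data known. Of 36 such genes, 8 had a peak at a gene end (22.2%, 10.1 to 39.2), beside 8.59% of all protein-coding genes, and the median window held 0 reads. The count was 4 with peaks at or above the median score and 3 with peaks of at least 20 reads, beside 6.04% and 4.73% of all protein-coding genes. Among 10 relatives, the 3 with a peak at an end were Egr3, Egr4 and Pou3f4. Egr4, an Egr factor known mainly from neurons and germ cells, had a peak of 2468 bp with 83 reads (66.1 to 103) over 82.4% of the gene. Egr3 had 11 reads, Pou3f4 12 reads, and Egr1, an early response gene, had no peak. The interval of the 18 reads of Egr2 overlaps with that of Egr3 (5.49 to 19.7) and lies below that of Egr4. Tead2 and Tead3 had no peak at an end but held 302 and 59 reads in their windows. Tead4, Zeb1, Yy2 and Zfp42 had none in the window, as was the case for Nab1, Nab2, Yy1 and Zeb2.

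Among 16 cooperating factors, 2 had a peak at an end (12.5%), a share near the 8.59% of all protein-coding genes. These were Sox10 with 11 reads and Nfatc4, a calcineurin-regulated partner of Sox10, with 15 reads, where the weakest listed peaks hold 10. Prrx1, Srebf2 and Nfatc3 had peaks elsewhere in the window. The partners of Tead1, Yap1 and Wwtr1 (Taz), had none, nor did the Nab-associated remodeler Chd4 or the deacetylase genes Hdac1 and Hdac2. Of 10 inhibitors of myelination or factors of the immature and repair cell, 3 had a peak at an end (30%, beside the same 8.59%). Pax3, expressed in immature Schwann cells, had a peak of 12839 bp with 319 reads (285 to 356). Sox2, a known inhibitor that Zeb2 represses, had 49 reads in 3 peaks, and Hey2, another target of Zeb2, had 20 reads in 2 peaks of 500 bp. Jun, Id2, Id4, Notch1, Smad7, Hes1 and Zbtb7a had none in the window. Markers of the nerve's cells were also looked up, although peaks of a silencing mark do not measure expression. Peaks lay at the ends of 2 of 2 neuron markers and 1 of 2 fibroblast markers, and at an end of the Schwann cell marker Sox10, while the Schwann cell markers S100b and Erbb3 had none in the window.

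By bases under peaks in the gene and its flanks, Pou3f3 ranked 81 among protein-coding genes. The genes directly above it were Hmx1 (24874 bp) and Dmrt1 (24781 bp), and those directly below were Olig1 (24213 bp) and Six3 (24148 bp). Hmx1 and Six3 are homeobox factors, Dmrt1 is a gonadal factor and Olig1 belongs to the oligodendrocyte lineage. Their reads in the window ranged between 570 and 616, beside 557 for Pou3f3.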

How the data were processed

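H3K27me3 ChIP and input were sequenced from mouse sciatic nerve, 1 library each. The submitters' processing notes name Bowtie and mm10. The authors deposited 1 list of peaks with a score each, of unstated meaning. Sequencing depth, peak caller, threshold and use of the input were not given in the sources used here. Since 99.8% of scores were whole multiples of 2.5735 (tolerance 0.05), score divided by that step was read as reads, an inference from the values. The weakest peaks, 10 reads, have a 95% Poisson interval of 4.80 to 18.4.

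Gene spans and promoters came from RefSeq tables of GRCm38.p6. Overlaps were computed with Python 3.11.15, pandas 2.3.3, numpy 2.4.6 and scipy 1.17.1, after the overlap code was tested on simulated data. Reads in a window include the parts of peaks that reach outside it. The 9 genes, the 36 regulators and the markers were chosen with earlier results of these data known. Named are all 9 genes, every listed regulator with a peak at an end, relatives, neighbours under a peak and the genes ranked next to the strongest member. Other regulators with no peak at an end and the genes at the nearest peaks were named after their values were seen. Some genes that these rules take are not reported here. Alternatives varied flanks, end windows, peak strength, overlap and peak ownership.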

Additional observations from a re-analysis of the deposited data

How the results depend on the processing

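The count of genes with a peak at an end was 4 with end windows of 1 and 5 kb. It was also 4 with the stronger peaks, those at or above the median score. Beside these counts stood 7.45%, 10.5% and 6.04% of all protein-coding genes. The count was 3 when only listed transcript starts were used, since Pou3f1 has none in the table. The share there was 7.31% of the protein-coding genes in the promoter table. It was also 3 with peaks of at least 20 reads, chosen after seeing the data, which removed Egr2, beside 4.73% of all protein-coding genes. With peaks of at least 20 reads the genes with a peak in the window fell to 3, against 5. The share of all protein-coding genes fell to 12.7%, against 25.5%. Reads in the 9 windows fell to 592, against 704. Peaks at or above the median score gave 5 genes, beside 16.8% of all protein-coding genes, and 674 reads. Flanks of 10 kb gave 604 reads and 24842 bp. They removed the Tead1 peak of 17 reads and lowered Pou3f3 from 557 to 484 reads and Pou3f2 from 85 to 75. Flanks of 100 kb gave 6 genes with a peak, adding Yy1, while the share of all protein-coding genes rose to 35.5%. Without Pou3f3 the windows held 147 reads and 6855 bp. Of the 36 other regulators, 8 had a peak at an end. The count was 4 with peaks at or above the median score and 3 with peaks of at least 20 reads. The shares of all protein-coding genes were 8.59%, 6.04% and 4.73%. Pou3f2 held 55 reads with peaks at or above the median score and 27 with peaks of at least 20 reads, against 85. No paired analysis was possible because there is 1 ChIP library, so no library could be left out either.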

Other observations

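Across the Pou family, a set chosen after the values were seen, 10 genes had a peak at a gene end. All 4 Pou3 genes did, and so did all 3 Pou4 genes, which encode sensory neuron and retinal factors. Reads in the window were 430 for Pou4f1, 176 for Pou4f3 and 112 for Pou4f2, beside 557 for Pou3f3. Pou5f1, the pluripotency factor, had 81 reads, close to the 85 of Pou3f2. Pou2f2 had 184 and Pou2f3 34. Pou1f1, Pou5f2 and Pou6f1, and the cofactor gene Pou2af1, had no peak in the window. Pou2f1, which many cell types express, had 31 reads in the window and none at an end.

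Tead2 held 302 reads in its window, in 9 peaks, with none of them in the Tead2 gene and the nearest 3471 bp from it. Pou3f2 held 85.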
